A study of Mus musculus with 6 samples.

Results

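The genes described here are the kinases, cyclins and inhibitors that control passage through G1, the phase before DNA replication: Cdk4, Cdk6, Ccnd1, Ccnd2, Ccnd3, Ccne1, Ccne2, Cdkn1a, Cdkn1b and Cdkn2c. They were taken by symbol from the count table, and all 10 of them, out of 21959 genes listed, passed the filter on low counts that left 11795 genes for testing. Cdk6 was put on the list because it was higher in the drug-resistant line of this same comparison, that is, it was chosen by its fold change here, so its difference is given as a description and was not tested. The other 9 were listed for their role, with earlier results of these data known.

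RNA was sequenced from 2 lines of mouse gastric adenocarcinoma cells, MPC and MPC-PTX (MTC and MTC-R in the study's text), with 3 libraries for each. Both carry the genotype CDH1-/-;Trp53-/-, so by label the parental controls have lost the same genes as the resistant cells. MPC was the control, and MPC-PTX had gone through more than 30 rounds of exposure to PTX (paclitaxel, a drug that stabilises microtubules and arrests cells in mitosis). MPC was grown from a subcutaneous tumour of gastric organoids in which a Mist1-driven, tamoxifen-inducible Cre had deleted both genes, and each line was expanded from a single clone, so every difference below is between 1 clone and 1 other. The labels do not say that the libraries came from separate cultures, so p-values measure the spread between these libraries. Whether PTX was in the medium at harvest is not given in the sources used here.

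D-type cyclins bind Cdk4 or Cdk6 and start the phosphorylation of the retinoblastoma protein, which then lets go of E2F transcription factors. E-type cyclins with Cdk2 complete that phosphorylation and carry the cell into S phase. Inhibitors of the INK4 family, such as the product of Cdkn2c, bind Cdk4 and Cdk6 alone, and those of the CIP/KIP family, such as the products of Cdkn1a and Cdkn1b, bind whole cyclin-kinase complexes.

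The libraries held 16574580 to 23148182 counts and 13897 to 14295 genes with at least 1 count. Variation between libraries (edgeR's BCV) came to 17.9% within MPC and 3.01% within MPC-PTX. The log ratio of MPC replicate 3 to MPC replicate 1 followed GC content (Spearman's rho -0.602 across 10048 genes, which are not independent replicates) and exon length (rho 0.506). The part of this in the results was not tested beyond the values given without each library and those after a correction for GC content and length. Trp53 had 98, 63 and 120 counts in MPC and 142, 130 and 111 in MPC-PTX, and Cdh1 stood at 134 ± 2.28 and 133 ± 2.72 CPM (SD, n = 3 each, the count relative to the TMM-scaled library total), so that both genes still had counts, neither was called (log2 fold changes 0.38 and -0.01, adjusted p = 0.228 and 0.864), and counts over whole genes do not check the deletions. The 5 epithelial markers (Epcam, Krt7, Krt8, Krt18 and Krt19) summed to 8556 to 9929 CPM in MPC and 5165 to 5332 CPM in MPC-PTX. The 8 fibroblast markers summed to 9.83 to 10.9 and 8.63 to 9.92 CPM, the 8 leukocyte markers to 11.3 to 12.8 and 9.8 to 10.8 CPM, and the 6 endothelial markers to 2.68 to 3.13 and 2.34 to 2.85 CPM, with no marker at 0 in every library.

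The balance of the kinases differed between the lines. Cdk6 was 3.43-fold higher in MPC-PTX and Cdk4 was lower, while the summed level of the pair per kilobase was 165 ± 8.27 CPM per kb in MPC and 173 ± 1.99 CPM per kb in MPC-PTX (SD, n = 3 each). Among the other members Ccnd2, Cdkn2c and Ccne1 rose and Cdkn1a fell. Thus 5 of the 9 tested members were called at an adjusted p below 0.05, 3 higher and 2 lower (3 called in all without any 1 of the MPC-PTX libraries), where 29.7% of all tested genes were called, 14.1% higher and 15.6% lower. In 6 of the 10 members, Cdk6 included, the 3 libraries of one line did not overlap those of the other in CPM, which was the case for 46.9% of all tested genes (24.2% higher and 22.7% lower in MPC-PTX). None of the 9 passed the study's own rule (a log2 fold change beyond 1 in size, with p below 0.05 before adjustment), which 8.11% of all tested genes passed.

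**Figure D1:**
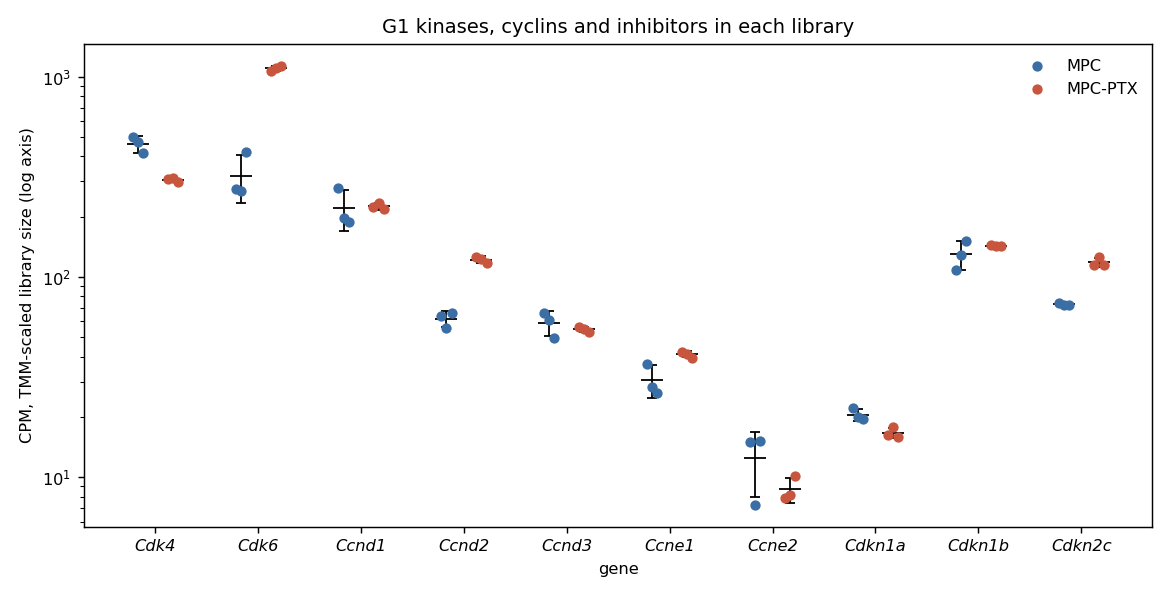
CPM of the 10 G1 genes in each of the 6 libraries, on a log axis, with points for libraries and bars for the mean of each line. The MPC-PTX libraries sit at 1064 to 1127 CPM for Cdk6, above 273 to 419.6 CPM in MPC, and at 298 to 311 CPM for Cdk4, below 413 to 501 CPM in MPC.

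Cdk6, a kinase partner of the D-type cyclins, lies on chr5:3341485-3531008 (GRCm38, plus strand). It had 5146, 5181 and 8734 counts in the MPC libraries and 24903, 24447 and 18968 in the MPC-PTX libraries. In CPM these were 273, 267 and 419.6 against 1064, 1102 and 1127. MPC replicate 3 stood above the other MPC libraries, and every MPC-PTX library was above all of MPC. The means were 320.1 ± 86.3 and 1098 ± 31.8 CPM (SD, n = 3 each), and the log2 fold change was 1.78 (standard error, SE, 0.18). It lay between 1.63 and 1.97 over 14 alternative settings. By mean CPM, Cdk6 moved from rank 520 to rank 68 among the tested genes, and 171 of them (1.45%) had a larger log2 fold change.

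Cdk4, the other partner kinase, lies on chr10:127063534-127067920 (plus strand). Its level was 501, 473 and 413 CPM in MPC and 307, 311 and 298 CPM in MPC-PTX. All MPC-PTX libraries were below all MPC libraries, and MPC replicate 3 was the lowest of its line. The mean fell from 462 ± 44.8 to 306 ± 6.78 CPM (SD, n = 3 each), giving a log2 fold change of -0.60 (SE 0.08) with an adjusted p of 0.00175, here and below from the quasi-likelihood fit of edgeR to all tested genes. The call held under all 14 alternatives. A stretch of 641 exon bases, 19.7% of Cdk4, is shared with Tspan31 on the opposite strand, and as the use of strand in counting is not given in the sources used here, reads from the genes cannot be told apart there. Tspan31 itself was at 84.2 ± 10.1 CPM in MPC and 69.5 ± 2.68 CPM in MPC-PTX (log2 fold change -0.28, adjusted p = 0.0737).

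Per kilobase of exon, where genes can be compared with each other, Cdk6 made up 11.3%, 11.6% and 19.1% of the sum of Cdk4 and Cdk6 in MPC and 44.6%, 45.1% and 46.8% in MPC-PTX. The means were 14% ± 4.43 and 45.5% ± 1.14 (SD, n = 3 each), and the lines did not overlap. The per-kilobase sum was 174, 165 and 157 CPM per kb in MPC and 171, 175 and 172 CPM per kb in MPC-PTX, so its ranges overlapped. The choice of length bears on both values. Without division by length the share went from 40.6% to 78.2% and the sum from 782 to 1403 CPM, and with the length of the longest transcript, an alternative added after the data were seen, the share went from 11.1% to 39% and the sum from 253 to 244 CPM per kb. Under each of the 3 scales Cdk6 had the larger share in MPC-PTX.

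The DNA before the start sites of these kinases is shown because their levels moved in opposite directions. RefSeq's promoter set (GRCm38.p6) held 7 of the 10 members, and entries for Ccnd1, Ccnd2 and Ccne2 were not used here. The lines give the plus strand from 5′ to 3′ within 250 bases of the RefSeq start, without annotated exons of the gene itself. Such exons divide the window of Cdk6 into a distal and a proximal stretch. That window lies inside the span of Cdk6 given above, which begins at chr5:3341485. Capitals mark E-boxes (CACGTG, the same on both strands) and GC boxes (GGGCGG, or CCGCCC on the other strand). Cdk4 is chr10:127063285-127063533, Cdk6 distal is chr5:3343643-3343731 and Cdk6 proximal is chr5:3343789-3343892.
Cdk4: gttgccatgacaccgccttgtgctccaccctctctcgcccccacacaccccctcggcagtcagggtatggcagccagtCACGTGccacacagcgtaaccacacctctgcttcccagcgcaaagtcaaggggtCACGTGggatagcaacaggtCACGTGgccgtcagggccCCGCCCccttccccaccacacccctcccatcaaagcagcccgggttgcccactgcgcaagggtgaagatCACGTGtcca
Cdk6 distal: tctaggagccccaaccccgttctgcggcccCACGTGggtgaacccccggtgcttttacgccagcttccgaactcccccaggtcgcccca
Cdk6 proximal: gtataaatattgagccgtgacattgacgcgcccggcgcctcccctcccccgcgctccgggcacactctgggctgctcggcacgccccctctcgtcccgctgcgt
Cdk4 had 4 E-boxes and 1 GC box in this window, and Cdk6 had 1 E-box and no GC box. An E-box was found in 6.02% of the 32851 windows of this length. At least 4, the number found in Cdk4, were in 7 windows (0.0213%), a limit set after results were seen. GC boxes were found in 32.7% of the windows. Counted by gene, with any 1 of its windows enough, they were found in 6 of the 7 members with a window, namely all but Cdk6. Cdkn1a and Cdkn2c each also had a window without a GC box. An E2F-type core (TTTGGCG, or the same with CC, GC or CG in place of GG, on either strand) was found in 1 of the 7 members, Cdkn2c, in the second of its start sites, and in 5.51% of all windows. No share by gene was taken for windows of this length, so the counts of members and the shares of windows are unlike measures. The E-box and the GC box were searched after the E2F-type core. A match says only that the letters are present.

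Of the D-type cyclins, the partners of these kinases, only Ccnd2 was called. Ccnd2 (chr6:127125162-127152193, minus strand) was at 63.7, 55.3 and 66.2 CPM in MPC and at 126, 123 and 117 CPM in MPC-PTX. Every MPC-PTX library was above every MPC library. The mean rose from 61.7 ± 5.7 to 122 ± 4.89 CPM (SD, n = 3 each), giving a log2 fold change of 0.98 (SE 0.09, adjusted p = 2.62e-04), and the call held under all 14 alternatives. Ccnd1 (chr7:144929931-144939925, minus strand), the D-type cyclin with the highest level per kilobase in both lines, was at 277, 196 and 187 CPM in MPC and 224, 235 and 217 CPM in MPC-PTX. MPC replicate 1 was above and the other MPC libraries were below all of MPC-PTX, and the log2 fold change was 0.04 (SE 0.15, adjusted p = 0.879). Without MPC replicate 1 it became 0.24 with an adjusted p of 0.0216. Ccnd3 (chr17:47505051-47599691, plus strand) was at 66.3, 61.2 and 49.7 CPM in MPC and 56.2, 54.9 and 53.2 CPM in MPC-PTX. Its lines overlapped, with a log2 fold change of -0.11 (SE 0.11, adjusted p = 0.499), which became -0.27 (adjusted p = 0.00503) without MPC replicate 3. Exon bases shared on the opposite strand made up 23.4% of Ccnd1 (with LTO1) and 4.11% of Ccnd3 (with Bysl).

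Ccnd2 thereby made up a larger part of the D-type cyclin RNA per kilobase, 11.2% ± 2.12 in MPC and 19.3% ± 0.544 in MPC-PTX (SD, n = 3 each). Ccnd1 went from 77.5% ± 2.54 to 71.4% ± 0.781 and remained the main D-type cyclin transcript in each library. These shares were not tested.

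**Figure D2:**
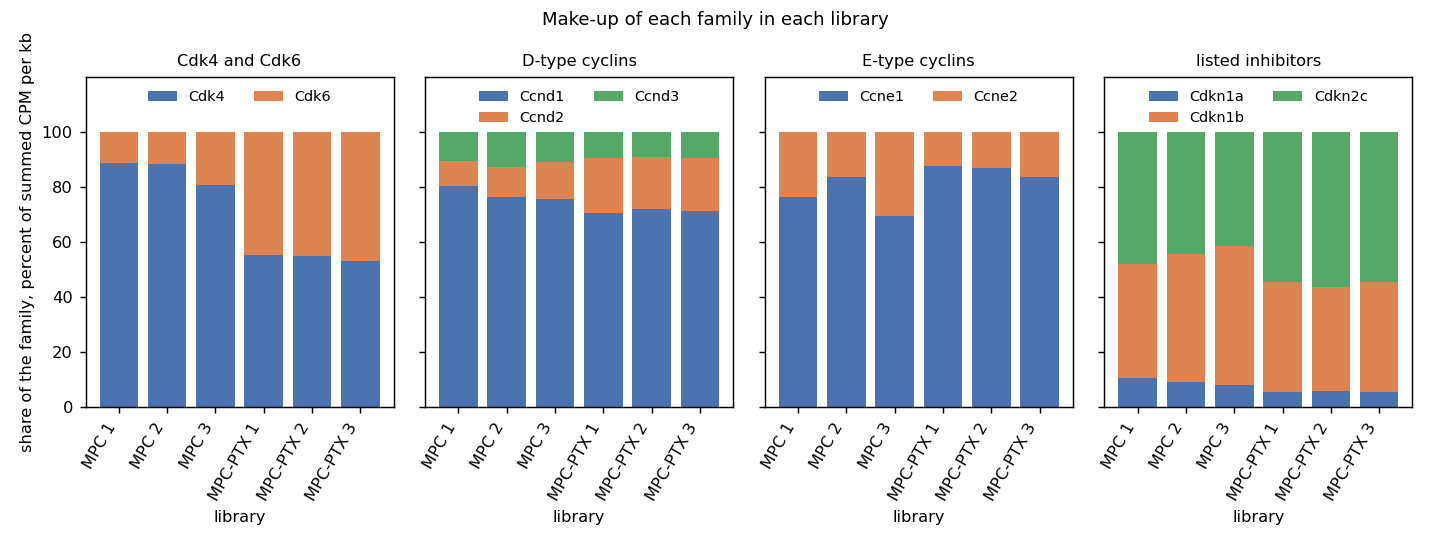
Share of each gene in the summed CPM per kilobase of its family, in percent, for each of the 6 libraries. Cdk6 takes 11.3% to 19.1% of the Cdk4 and Cdk6 sum in the MPC libraries and 44.6% to 46.8% in the MPC-PTX libraries.

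The E-type cyclins, which activate Cdk2, were less certain. Ccne1 (chr7:38097984-38107534, minus strand) was at 36.9, 28.3 and 26.2 CPM in MPC and 42.3, 41.4 and 39.4 CPM in MPC-PTX. The lines did not overlap, though MPC replicate 1 came close to MPC-PTX. The mean rose from 30.5 ± 5.64 to 41.1 ± 1.51 CPM (SD, n = 3 each, log2 fold change 0.43, SE 0.13, adjusted p = 0.0457). This call was lost in 6 of 14 alternatives, among them the removal of MPC replicate 2 (adjusted p = 0.157) or of any MPC-PTX library (0.109 to 0.145). Ccne2 (chr4:11191351-11204779, plus strand) was at 14.9, 7.27 and 15.1 CPM in MPC and 7.82, 8.12 and 10.1 CPM in MPC-PTX. MPC replicate 2 was below all of MPC-PTX and the other MPC libraries were above it, with a log2 fold change of -0.53 (SE 0.28, adjusted p = 0.214). Without MPC replicate 2 the value was -0.80 (adjusted p = 0.0173), and after a correction for GC content and length it was -0.73 (adjusted p = 0.0461). Ccne2 shares 609 exon bases, 17.4% of its length, with Ints8 on the opposite strand, which fell (log2 fold change -0.65, SE 0.15, adjusted p = 0.0166).

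The listed inhibitors moved in different directions. Cdkn2c (chr4:109660876-109667189, minus strand), which encodes the INK4 inhibitor p18, was at 74.3, 72.2 and 72.7 CPM in MPC and 115, 125 and 115 CPM in MPC-PTX. Both lines were tight and did not overlap. The mean rose from 73.1 ± 1.12 to 118 ± 5.49 CPM (SD, n = 3 each), giving a log2 fold change of 0.69 (SE 0.06, adjusted p = 3.54e-04), and the call held under all 14 alternatives. Cdkn1a (chr17:29090976-29100727, plus strand), which encodes p21, a CIP/KIP inhibitor and p53 target, was at 22.2, 19.95 and 19.4 CPM in MPC and 16.2, 17.7 and 15.8 CPM in MPC-PTX. The lines did not overlap, and the mean fell from 20.5 ± 1.45 to 16.6 ± 1.01 CPM (SD, n = 3 each, log2 fold change -0.31, SE 0.10, adjusted p = 0.04999). This value was at the threshold, and only 4 of 14 alternatives called the gene (highest adjusted p 0.18). Cdkn1b (chr6:134920401-134925513, plus strand), which encodes p27, was at 108, 129 and 151 CPM in MPC and 144, 142 and 142 CPM in MPC-PTX. MPC replicate 3 was above all of MPC-PTX and the other MPC libraries were below it (log2 fold change 0.14, SE 0.12, adjusted p = 0.409; 0.21 and 0.0417 without MPC replicate 3). Summed per kilobase, the 3 inhibitors stood at 61.4 ± 4.09 CPM per kb in MPC and 80 ± 2.25 CPM per kb in MPC-PTX, and Cdkn2c went from 44.4% ± 3.42 to 55% ± 1.02 of the sum (SD, n = 3 each).

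By level per kilobase of exon, the order of the members in MPC was Cdk4 (142 CPM per kb), Ccnd1 (46.7), Cdkn1b (28.5), Cdkn2c (27.2), Cdk6 (22.9), Ccne1 (11.4), Ccnd3 (6.73), Ccnd2 (6.56), Cdkn1a (5.77) and Ccne2 (3.56). Libraries of the neighbours Cdkn1b and Cdkn2c, Cdkn2c and Cdk6, Ccnd3 and Ccnd2, and Ccnd2 and Cdkn1a overlapped in that order. In MPC-PTX the order was Cdk4 (94 CPM per kb), Cdk6 (78.5), Ccnd1 (47.9), Cdkn2c (44), Cdkn1b (31.3), Ccne1 (15.4), Ccnd2 (13), Ccnd3 (6.24), Cdkn1a (4.66) and Ccne2 (2.48), where only Ccnd1 and Cdkn2c overlapped. Cdk4 was therefore the more abundant kinase transcript in every library of both lines on this scale, although Cdk6 had more reads than Cdk4 in the MPC-PTX libraries and in MPC replicate 3 (8734 against 8600 counts).

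The other inhibitors of the 2 families were examined next. None of Cdkn2a, Cdkn2b, Cdkn2d and Cdkn1c was called by edgeR, 1 of them had an unadjusted p below 0.05, and DESeq2 called 1. Cdkn2a, which encodes p16 and the p53 activator Arf, was at 151 ± 17.6 CPM in MPC and 146 ± 4.17 CPM in MPC-PTX. Cdkn2b was at 41.1 ± 2.23 and 37.8 ± 0.946 CPM, and Cdkn2d at 21.3 ± 2.96 and 21.5 ± 2.07 CPM. Cdkn1c, which encodes p57, was at 2.6 ± 1.04 and 4.58 ± 0.304 CPM (SD, n = 3 each, log2 fold change 0.82, SE 0.27, adjusted p = 0.054). Without MPC replicate 1, 1 of the 4 was called higher, and without MPC replicate 3, 2 were called lower.

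Downstream of the kinases, Rb1, which encodes the retinoblastoma protein, was at 17.2, 21 and 27.4 CPM in MPC and 38.4, 40.3 and 40.9 CPM in MPC-PTX. It rose with no overlap (log2 fold change 0.86, SE 0.16, adjusted p = 0.0072). Its relatives Rbl1 (0.35, adjusted p = 0.0919) and Rbl2 (0.22, adjusted p = 0.196) were not called, whereas without MPC replicate 3 all 3 rose, and after the GC and length correction, with or without a replicate block, 2 rose. The call of Rb1 held in all 14 alternatives. Of 10 E2F and DP factors, 4 rose and none fell, with a list median of 0.09 beside 0.04 for all tested genes. Called genes made up 40% of this list and 29.7% of all tested genes (14.1% higher, 15.6% lower). E2f2, an activating E2F, was at 4.62, 3.09 and 3.84 CPM in MPC and 10.7, 9.87 and 11.3 CPM in MPC-PTX (log2 fold change 1.46, SE 0.16, adjusted p = 7.76e-04). The repressors E2f7 and E2f8 each had a log2 fold change of 0.34, and the fourth, Tfdp1, which encodes a dimer partner of E2Fs and is named beyond the rule because the count is small, had 0.30. Calls of E2f2 and Tfdp1 held in all 14 alternatives, and those of E2f7 and E2f8 were lost on removal of any 1 MPC-PTX library.

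E2Fs switch on genes for DNA replication. Of 28 such G1/S target genes 3 (10.7%) rose and none fell by edgeR, beside 14.1% and 15.6% of all tested genes, with a median log2 fold change of 0.09. They were Gins3 (0.57, SE 0.09, adjusted p = 0.00342) and Gins4 (0.26, SE 0.08, adjusted p = 0.0395), which encode parts of the replicative helicase, and Orc1 (0.50, SE 0.10, adjusted p = 0.00948), which encodes a subunit of the origin recognition complex. The count rested on single libraries: without MPC replicate 1, 12 rose and none fell, without MPC replicate 3, 4 rose and 8 fell, and without MPC-PTX replicate 2, 1 rose. The list median likewise lay between -0.04 without MPC replicate 3 and 0.18 without MPC replicate 1 over the 14 alternatives. Gins3 was called in all 14 alternatives, Orc1 in 13 and Gins4 in 5. An E2F-type core was found within the 300-base promoter window of 13 of the 23 genes of this list with a window and of 5 of 8 E2F and DP factors, beside 12.9% of the 9414 tested genes with a window and 7.65% of all 27025 genes with one.

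Of 6 tested genes for the S-phase kinase Cdk2 and its activators, 2 fell and none rose (33.3% called, beside 29.7% of all tested genes). These were Mnat1 (log2 fold change -0.39, SE 0.10, adjusted p = 0.0254) and Cdk7 (-0.30, SE 0.07, adjusted p = 0.0137), both parts of the kinase complex that activates other cyclin-dependent kinases. Without MPC-PTX replicate 2 or MPC-PTX replicate 3 neither was called, Mnat1 was also lost without MPC replicate 2 and Cdk7 without MPC-PTX replicate 1, and without MPC replicate 1, 4 genes fell. Of 9 genes for the turnover of G1 cyclins and p27, Skp2, the receptor subunit that targets p27 for degradation, rose (0.47, SE 0.10, adjusted p = 0.0115). Its cofactor Cks1b fell (-0.36, SE 0.07, adjusted p = 0.00889), as did Fzr1 (-0.47, SE 0.07, adjusted p = 0.00347), which encodes an activator of the anaphase-promoting complex in G1. The rise of Skp2 was lost without MPC replicate 2, MPC-PTX replicate 1 or MPC-PTX replicate 3, the fall of Cks1b was lost without MPC-PTX replicate 2, and that of Fzr1 held in all 14 alternatives. With all libraries, the 3 calls were 33.3% of the turnover list, beside 29.7% of all tested genes. Without MPC replicate 1, 2 of the 9 rose and 3 fell.

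Of 15 genes of G2 and mitosis, 5 fell and 1 rose, where 15.6% of all tested genes were called lower and 14.1% higher. Their median log2 fold change was -0.19, beside 0.04 for all tested genes. Over the 14 alternatives this median lay between -0.23 and -0.08. The value of -0.08 came with the GC and length correction, where all tested genes had a median of 0.03. Cdk1, the mitotic kinase, was at 256, 267 and 238 CPM in MPC and 177, 168 and 169 CPM in MPC-PTX, a fall with no overlap (log2 fold change -0.57, SE 0.06, adjusted p = 9.06e-04). Its cyclins Ccnb2 (-0.50, SE 0.10) and Ccnb1 (-0.37, SE 0.06) also fell (adjusted p = 0.00921 and 0.0043), whereas Cdc25b, a phosphatase that activates Cdk1, rose (0.35, SE 0.06, adjusted p = 0.00532). Bub1b (-0.31, adjusted p = 0.00862) and Aurka (-0.26, adjusted p = 0.033), named beyond the rule as the rest of a small count, made up the 5. Calls of Cdk1, Ccnb1, Ccnb2 and Cdc25b held in all 14 alternatives, Bub1b in 12 and Aurka in 7. Without MPC replicate 3 the counts were 7 down and 4 up. In bulk RNA, fewer cells in a phase of the cycle and less RNA per cell cannot be told apart.

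**Figure D3:**
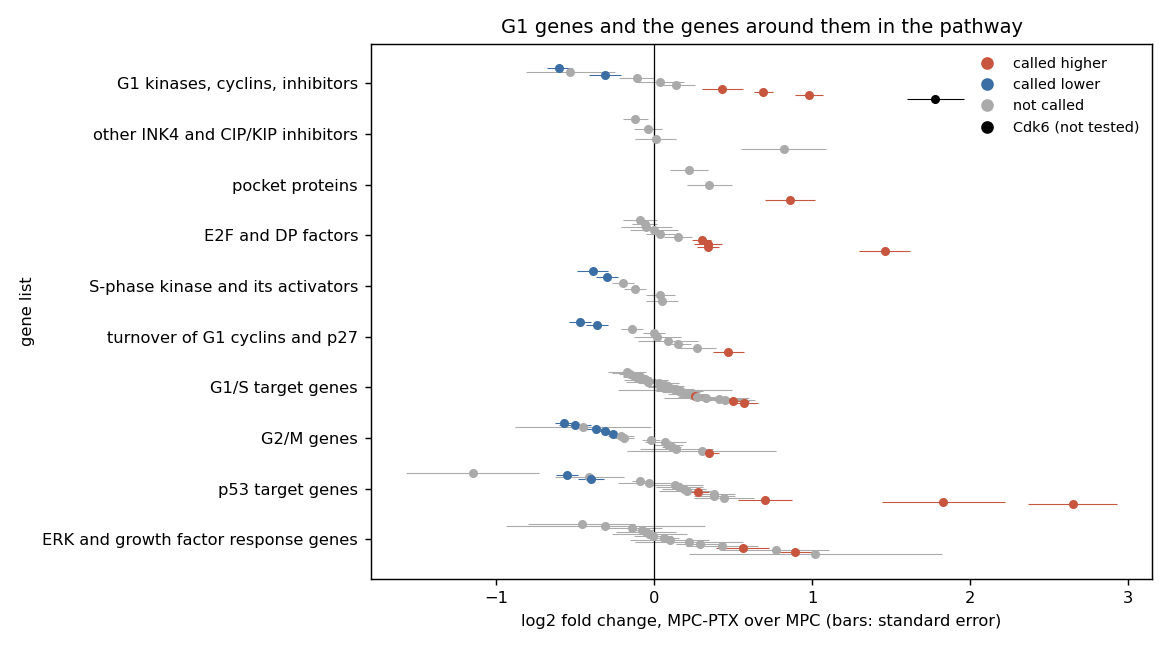
Log2 fold change (MPC-PTX over MPC) of every tested gene in the G1 pathway lists, by list, with 1 point a gene and called genes marked apart from the rest. E2f2 stands at 1.46 among the E2F and DP factors and Cdk1 at -0.57 among the G2/M genes.

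Cdkn1a is a target of p53, and Ccnd1 of growth factor signalling through ERK, so genes of both programmes were read beside them. Of 17 tested p53 targets 4 rose and 2 fell, so 35.3% were called, beside 29.7% of all tested genes. Their median log2 fold change was 0.19, beside 0.04 for all tested genes. The rises with the largest log2 fold changes were of Fas, a death receptor gene (7 to 14 counts in MPC and 61 to 70 in MPC-PTX; 2.65, SE 0.28), Gdf15, a secreted stress factor gene (3 to 9 and 17 to 30 counts; 1.83, SE 0.39) and Sesn2, a stress-induced regulator of growth (0.70, SE 0.17, adjusted p = 0.018). Btg2, an antiproliferative gene (-0.55, SE 0.07), and Tnfrsf10b, another death receptor gene (-0.40, SE 0.08), fell. Zmat3 (0.28, adjusted p = 0.0176), named beyond the rule, was the other gene that rose. Of these 6 calls, Btg2 held in all 14 alternatives, Fas in 13, Gdf15 and Tnfrsf10b in 12, Sesn2 in 10 and Zmat3 in 8. The counts up and down were 8 and 4 without MPC replicate 1, 7 and 3 without MPC replicate 3, 1 and 1 without MPC-PTX replicate 2, and 2 and 1 without MPC-PTX replicate 3. Of 16 ERK and growth factor response genes 2 (12.5%) rose and none fell, beside 14.1% and 15.6% of all tested genes. The 2 were the ETS factors Etv5 (0.89, SE 0.14, adjusted p = 0.00347) and Etv4 (0.56, SE 0.17, adjusted p = 0.042). Etv5 was called in all 14 alternatives and Etv4 in 9. Without MPC replicate 1, in which Ccnd1 was highest, 10 of the 16 rose, and without MPC replicate 2 or any 1 of the MPC-PTX libraries 1 did.

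Cdk6 and Ccne2 lie among genes that moved the same way. Of the 11 tested genes that start within 1 Mb of Cdk6, all had a positive log2 fold change and 9 were called higher, with values from 0.64 to 1.68 and a median of 1.21 beside 0.04 for all tested genes. Cdk6, at 1.78, was above each of them. The 3 nearest, all on its higher side, were Fam133b (0.88, SE 0.16, adjusted p = 0.00613), 1700109H08Rik (1.38, SE 0.45, adjusted p = 0.0576) and Rbm48 (1.49, SE 0.14, adjusted p = 4.34e-04), and no tested gene lay on the lower side, nearer the end of the chromosome. Median log2 fold changes on chromosome 5 were 0.73 for 10 genes at 1 to 5 Mb from Cdk6, 1.92 for 12 genes at 5 to 10 Mb, 0.74 for 19 genes at 10 to 20 Mb and 0.10 for the 725 genes beyond 20 Mb. Library by library, the neighbours within 1 Mb stood at median deviations from the MPC mean of -0.19, -0.11 and 0.37 in MPC and 1.09, 1.34 and 1.20 in MPC-PTX on the log2 scale. Cdk6 itself stood at -0.19, -0.23 and 0.42 in MPC and 1.76, 1.82 and 1.85 in MPC-PTX, so that MPC replicate 3 was the highest MPC library for both. The part of the shared shift in the level of Cdk6 was not tested.

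Further genes of the cell cycle lie in this stretch and were chosen after their values were seen. Dbf4, which encodes the activator of the replication kinase Cdc7, starts 5.06 Mb from Cdk6 and had a log2 fold change of 1.49 (SE 0.14, adjusted p = 4.03e-04). Dmtf1, which encodes a transcription factor that binds D-type cyclins, starts at 5.78 Mb and had 1.18 (SE 0.22, adjusted p = 0.00775). Cdk14, a distant relative of Cdk6, starts at 1.46 Mb and was the 1 gene within 2 Mb with a negative value (-0.55, SE 0.12, adjusted p = 0.0114). The transporter genes Abcb1a and Abcb1b, whose products export PTX, start at 5.32 and 5.46 Mb. Their log2 fold changes, 2.19 (SE 0.12, adjusted p = 3.81e-05) and 2.07 (SE 0.07, adjusted p = 8.81e-06), were larger than that of Cdk6.

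All 14 tested genes that start within 1 Mb of Ccne2 had a negative log2 fold change and 9 were called lower, with a median of -0.67. On its lower side lie Plekhf2 (24.6 ± 2.17 CPM in MPC and 12.3 ± 1.12 CPM in MPC-PTX, SD, n = 3 each, adjusted p = 7.76e-04), then, as log2 fold changes,, Ndufaf6 (-0.42, adjusted p = 0.11) and Trp53inp1 (-1.15, adjusted p = 0.0865), and on its higher side Ints8 (-0.65), Dpy19l4 (-0.53, adjusted p = 0.267) and Esrp1 (-0.92, SE 0.06, adjusted p = 1.04e-04). Ccne2, at -0.53, was not called but lay within this range. The medians were -0.85, -0.58, -0.28 and 0.22 at 1 to 5 Mb, 5 to 10 Mb, 10 to 20 Mb and beyond. Around Cdkn2c, all 10 tested neighbours had positive values and 5 were called higher (median 0.36, against 0.69 for Cdkn2c and 0.18 for the 511 genes of chromosome 4 beyond 20 Mb), and around Cdk4 23 of 32 were negative, with 12 called lower and 2 higher (median -0.21, against -0.60 for Cdk4). The 426 genes of chromosome 10 beyond 20 Mb from Cdk4 had a median of -0.19, with 129 called lower and 32 higher, close to the values around it. Ccnd2 and Ccne1 stood apart from their surroundings in value: the 6 neighbours of Ccnd2 had a median of 0.12 with none called higher and 1 lower, and the 4 neighbours of Ccne1 had a median of -0.02 with none called. The remaining 4 members had neighbour medians between -0.19 and 0.01.

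**Figure D4:**
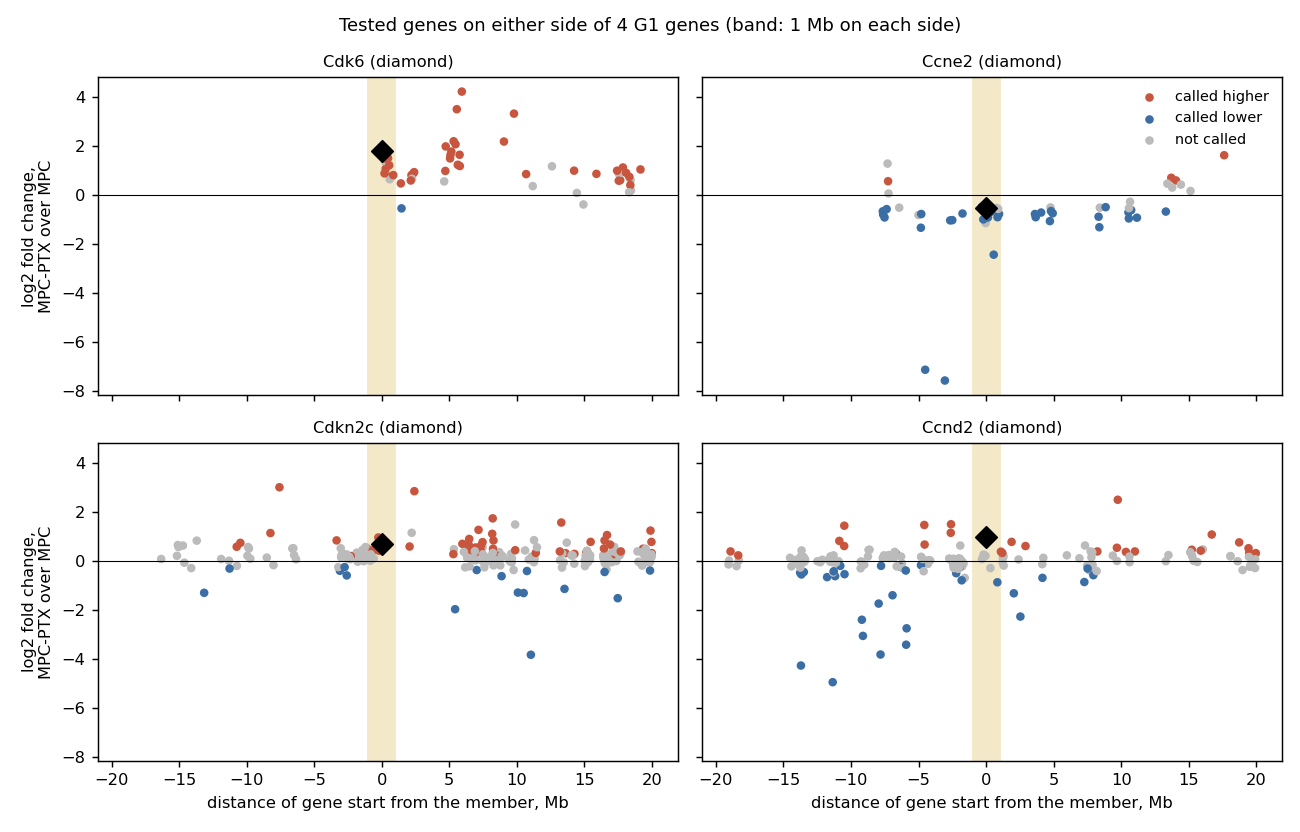
Log2 fold change (MPC-PTX over MPC) of tested genes against their distance in Mb from Cdk6, Ccne2, Cdkn2c and Ccnd2, with the member itself marked at 0. All 11 neighbours within 1 Mb of Cdk6 lie above 0 and below Cdk6 at 1.78, and all 14 within 1 Mb of Ccne2 lie below 0.

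The 5 genes whose centred log2 CPM over the 6 libraries differed least from that of Cdk6, among tested genes with a mean of at least 5 CPM, were Nova1 (root mean square difference 0.046), Ankib1 (0.0687), Zfp518b (0.103), Slc25a40 (0.104) and Tmem243 (0.123). Nova1 is on chromosome 12 and the other 4 are on chromosome 5. Of these, Ankib1 lies within 1 Mb of Cdk6, Slc25a40 and Tmem243 start 5.08 and 5.76 Mb from it, and Zfp518b starts at chr5:38668484. Nova1 was at 4.42 ± 1.14 CPM in MPC and 16.1 ± 0.406 CPM in MPC-PTX, and Ankib1 at 103 ± 23.8 and 329 ± 19.1 CPM (SD, n = 3 each). The libraries share the high MPC replicate 3, and the likeness is a description.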

How the data were processed

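Poly-A-selected RNA was sequenced from 3 MPC and 3 MPC-PTX libraries. Per the labels and the study's methods, reads were filtered with fastp 0.22.0 and mapped with HISAT2. The authors deposited raw read counts per gene, neither normalised nor pooled. The genome release, annotation, counting tool and use of strand are not given in the sources used here. The 6 sample tables held the same values as the series table, which was used. Totals were 16574580 to 23148182 counts per library.

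The members and gene lists were chosen with earlier results of these data known. From the deposited counts, filterByExpr (minimum count 10, grouped by line) kept 11795 genes, which were scaled by TMM and tested in edgeR 4.0.16 under R 4.3.3 (robust glmQLFit, then glmQLFTest). The Benjamini-Hochberg adjustment ran over all of them, and a gene was called at an adjusted p below 0.05. Log2 CPM used a prior count of 2. With 3 libraries a line, no exact two-sided permutation test can reach a p under 0.1, and tests were taken from this fit. Levels per kilobase used the union of exons in GENCODE M21 (GRCm38), to which 21851 of 21959 genes were matched by Ensembl identifier, and promoters came from RefSeq. The scripts were tested on simulated data.

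Genes were named by rule: the members, Trp53 and Cdh1; in each list up to 3 called genes from the top and up to 3 from the bottom by log2 fold change, and every gene of lists of 4 or fewer; the 3 nearest tested genes on each side of Cdk6 and Ccne2; and the 5 genes most like Cdk6. Alternatives were DESeq2 1.42.0, its size factors, scaling by library size alone, no filter, at least 10 counts in every library, a replicate block, a loess correction (span 0.3) for GC content and length, the study's call rule, the removal of each library and, for shares, other lengths.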

Additional observations from a re-analysis of the deposited data

How the results depend on the processing

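Cdk4, Ccnd2 and Cdkn2c were called in all 14 alternatives, Ccne1 in 8 and Cdkn1a in 4, and the values of single members are given above. No called result changed sign in any of them. Calls over all genes numbered 3509, 957 under the study's rule (445 higher, 512 lower) and 1904 to 6247 when 1 library was left out. That rule, whose fold limit is what removes them, called 0 of the 9 members, 0 pocket proteins, 1 E2F or DP factor, 0 S-phase kinase genes, 0 turnover genes, 0 G1/S targets, 0 G2/M genes, 3 p53 targets and 0 ERK genes, although 5 members had an unadjusted p below 0.05 in edgeR. Leaving out 1 library gave 3 to 7 members, 0 to 2 other inhibitors, 1 to 3 pocket proteins, 2 to 5 E2F and DP factors, 0 to 4 S-phase kinase genes, 2 to 5 turnover genes, 1 to 12 G1/S targets, 4 to 11 G2/M genes, 2 to 12 p53 targets and 1 to 10 ERK genes. The members called numbered 3 without any 1 of the MPC-PTX libraries and 5, 4 and 7 without MPC replicates 1, 2 and 3, and the cause was not tested. The spread of each gene was pooled over both lines in every fit, including those with 2 libraries left in a line.

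The labels do not say whether the replicate numbers pair the libraries. Correlations of deviations were 0.151, -0.0227 and 0.173 for same-number libraries and -0.228 to 0.153 for the others. With 3 libraries a line these values cannot settle the pairing. With a replicate block 3504 genes and 4 members were called, and 1 other inhibitor in place of 0. That inhibitor count was also 1 with DESeq2, library size alone, no filter, the GC and length correction, and the block with that correction. The GC and length correction gave 4835 called genes in all, 2 pocket proteins, 4 S-phase kinase genes, 6 G1/S targets, 10 p53 targets and 5 ERK genes. With the block added it gave 4886, 2, 3, 6, 10 and 4. At least 10 counts in every library left 1 ERK gene. The cause of these moves was not tested. The Cdk6 share was 40.6% (MPC) and 78.2% (MPC-PTX) without length and 11.1% and 39% with the longest transcript. The E2F-type core was found in 0 of 7 members in a window from 100 bases before to 50 after the start. Low counts limit the precision of Fas and Gdf15.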
